A study of Mus musculus with 48 samples.

Results

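The mature hypothalamus and preoptic area of the mouse were compared with the earliest primordium of that region, to ask which genes are turned on or off between those ends and which are held at one level. The mature group was the 7 arrays of postnatal days 21 and 42 (P21 and P42) and the early group the 8 arrays of embryonic days 10 and 11 (E10 and E11), which is 15 of the 48 arrays of the series. E10, E11 and P21 each had 1 array of C57Bl/6 females, 1 of C57Bl/6 males, 1 of CD-1 females and 1 of CD-1 males, and P42 lacked the C57Bl/6 male. C57Bl/6 is an inbred strain and CD-1 an outbred stock. No mutation, transgene or drug was labelled in any group, all mice were on standard chow, and every sample was total RNA of a microdissected block of tissue. The array labelled C57Bl/6 P42 male was left out because its signal of Mobp, a protein of the myelin sheath, was 61.6 and so below the threshold of 200. Mobp lay between 932 and 1845 in the 7 mature arrays and between 17.1 and 169 in the 8 early arrays. The 32 arrays of the 8 ages in between, E12 to the day of birth (P0), served to time each change. The number of animals behind an array was not given in the sources used here, so p-values measure the spread between arrays.

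The hypothalamus and preoptic area grow from the neuroepithelium of the ventral forebrain. At the early ages that tissue consists mainly of dividing progenitors, patterned by secreted signals such as Shh and by transcription factors, with surrounding mesenchyme and young blood close by. The mature region holds peptide-secreting and GABA or glutamate neurons, astrocytes, myelinating oligodendrocytes, tanycytes and microglia, and it governs hormones, feeding, water balance, sleep and daily rhythm. In samples of whole tissue, fewer cells of a type and less RNA per cell cannot be told apart.

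The values are MAS5 signals of Affymetrix arrays, a probe-set brightness scaled by the authors to a common trimmed mean in every array, and changes are given as mature minus early on log2(signal + 16), a scale that understates the change of dim genes. Early arrays correlated with each other at 0.783 to 0.967 and mature arrays at 0.889 to 0.981 over the genes tested, against 0.566 to 0.676 between the groups. The ratio of the 3' to the 5' beta-actin probe set, which rises when RNA or its copy is short, was 3.77 to 4.49 in the 3 mature C57Bl/6 arrays, 1.39 to 2.20 in the 4 early C57Bl/6 arrays and 1.05 to 1.21 in the CD-1 arrays. The left-out array went against its label in more than Mobp: its signal of Sox11, a factor of newborn neurons, was 5214, where the 7 mature arrays lay between 45.4 and 257, and its signal of Crmp1, a growth-cone protein, was 2912, where they lay between 501 and 620. Its ratio of beta-actin was 1.28. Markers of the labelled tissue were present in the mature arrays, with Avp (vasopressin) at 3179 to 7150, Pmch (melanin-concentrating hormone) at 2899 to 5117 and Hcrt (orexin) at 1037 to 2315.

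Most genes differed between the ends. Of 13718 genes tested, 4358 (31.8%) were called higher in the mature arrays and 4474 (32.6%) lower, at an adjusted p under 0.05 by limma with strain as a covariate. More genes rose than fell by large steps: 1091 genes rose and 538 fell at least 4-fold, and 133 rose and 61 fell at least 16-fold. All 7 mature arrays lay above all 8 early arrays for 2713 called genes (19.8%), and all lay below for 2242 (16.3%). The median change over all genes tested was -0.07. When the arrays of each strain were fitted alone, 5592 genes were called in both, 5567 of them in the same direction.

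**Figure D1:**
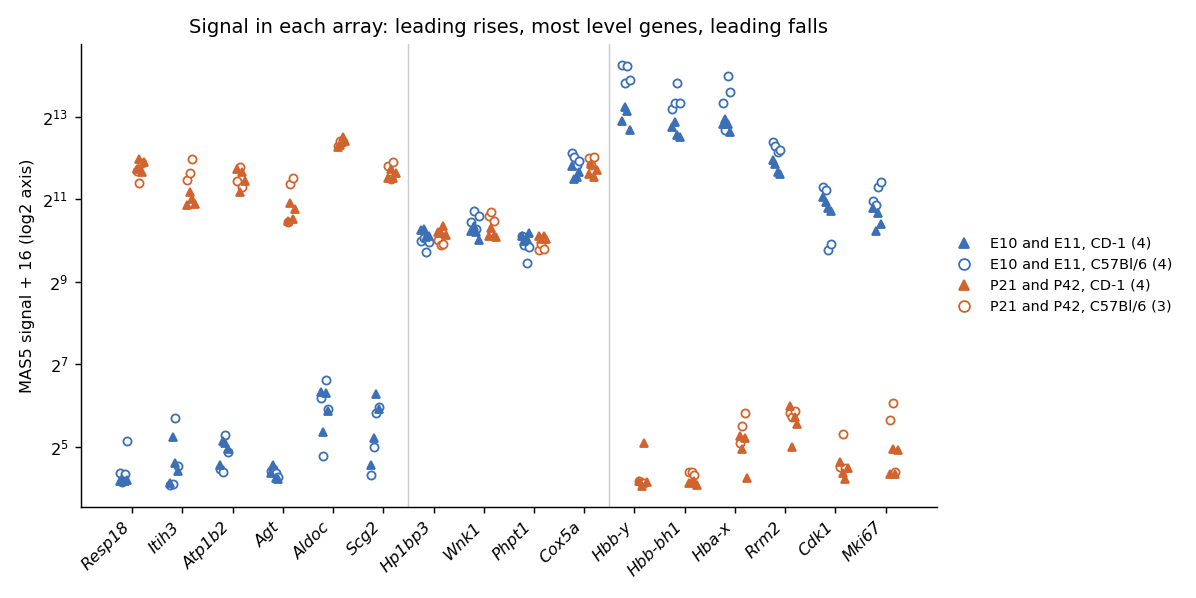
MAS5 signal plus 16 (log2 axis) in each of the 15 arrays for the 6 largest rises, the 4 most level genes with a mean signal over 500 in both groups, and the 6 largest falls. Blue is E10 and E11, orange is P21 and P42, triangles are CD-1 and open circles C57Bl/6. The groups overlap for the 4 genes in the middle, whereas the outer genes were picked among genes whose groups do not overlap.

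A gene was counted as switched on when it rose at least 4-fold, every early array was below the median signal of its own array and every mature array above it, and as switched off in the mirrored case. By that rule 294 genes (2.14%) were switched on and 150 (1.09%) switched off. For 282 of the 294 and 145 of the 150, the means of the ages from E12 to P0 crossed the midpoint between the early and mature means once, so the switch was for good within the ages sampled. The remaining 12 and 5 crossed it more than once. All 294 and all 150 were also called in the same direction in CD-1 alone and in C57Bl/6 alone, a description only, since the rule used these arrays. Both counts depend on where the line of presence is drawn: at the 40th in place of the 50th percentile of each array they were 184 and 96, and with the left-out array kept 88 genes met the rule for off.

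The switches had different timetables. Of the switched-on genes, 177 (60.2%) were past their midpoint by E16, 40 crossed it between E17 and P0, and 65 (22.1%) only by P21. Of the switched-off genes, 133 (88.7%) were past it by E16 and 6 (4%) only by P21, with 65 crossing at E14 alone. Among all genes called with a 4-fold change, whatever their side of the array median, the same shares were 65.1% and 19.5% for rises and 76.0% and 9.29% for falls. The gap between P0 and P21 spans 3 weeks without a sample, so a change dated to P21 took place at an unknown point in it.

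**Figure D2:**
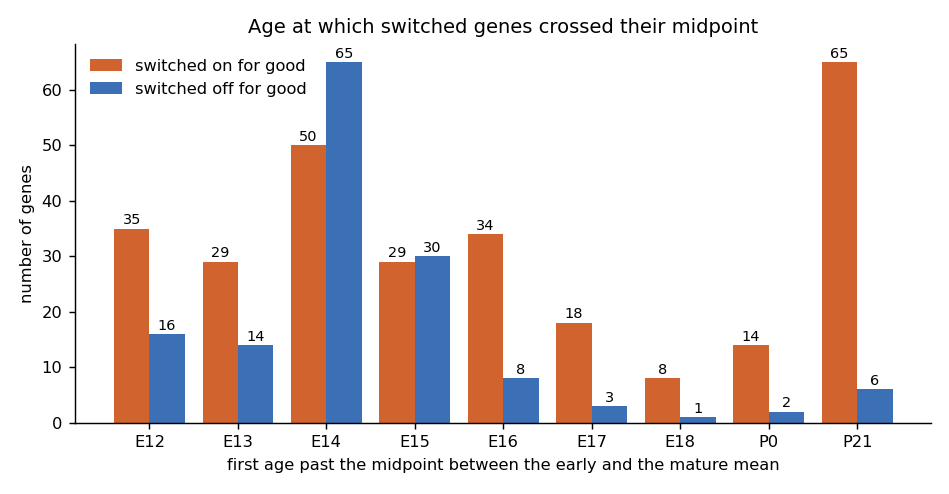
Number of genes switched on for good (orange) and off for good (blue) by the first age at which the mean passed the midpoint between the early and the mature mean. Switching off peaks at E14 with 65 genes, whereas switching on has 50 genes at E14 and a second group of 65 at P21.

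The largest rise was that of Resp18, a protein of the secretory granules of endocrine cells. Its signal in the early arrays was 1.91 at the lowest, 2.56 at the median and 19.3 at the highest, and in the mature arrays 2674, 3385 and 4007. The change was 7.40 ± 0.15 log2 units (SE; adjusted p = 1.1e-16 by limma). It rose from 7.01 ± 8.28 (SD, n = 4) at E11 to 261 ± 81.7 at E12, the first age past its midpoint, and reached 1400 ± 290 at P0. Agt, the angiotensinogen made by astrocytes in brain, was as dim at the start, with 2.83, 4.75 and 7.81 in the early arrays, and ended at 1368, 1729 and 2896 (change 6.50 ± 0.16, adjusted p = 7.4e-16). Agt kept a different timetable: it was 3.35 ± 0.889 at E16, 150 ± 40.2 at P0 and 1778 ± 575 at P21. Itih3, a matrix-binding protein, also passed its midpoint only at P21, with early signals of 0.866, 6.29 and 35.8, mature signals of 1829, 2278 and 3976 and a change of 6.70 ± 0.23 (adjusted p = 7.5e-14). These 3 genes were picked among genes whose mature arrays all lay above the early arrays, as was the case for 19.8% of all genes tested. The other leading rises were Atp1b2 (6.65), a sodium pump subunit, Aldoc (6.44), an aldolase of astrocytes, Scg2 (6.26), a granin, Tmem130 (6.24), Rasgrf1 (6.18), Hpcal4 (6.14) and Nrsn2 (6.04).

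The 35 genes switched on first, at E12, included Gad1 and Slc32a1, which make GABA and load it into vesicles, Myt1l, a factor that maintains neuronal identity, and Kcnd2, a potassium channel. Gad1 was at 3.35, 39.7 and 72.7 in the early arrays and at 1703, 1735 and 2158 in the mature ones (change 5.34 ± 0.29, adjusted p = 2.4e-11), and stood at 376 ± 230 at E12. Gria1, Gabra2 and Gabra5, subunits of glutamate and GABA receptors, followed at E13, and Scg2, Grm5 and Grm7 at E14. Vsnl1 and Eno2, a calcium sensor and an enolase of neurons, passed the midpoint at E16, Vgf and the GABA transporter Slc6a11 at E17, and Ache and Htr2c at E18. The 65 genes dated to P21 included glial genes, among them Mog, Gpr17, S100b, Gjb6, Kcnj10 and Fam107a, beside Vamp1, a vesicle protein of fast synapses. Trh and Crh, the peptides that drive the thyroid and adrenal axes, met the rule for on but crossed their midpoint more than once, and Crh read 156 ± 71.2 at E16, 54.1 ± 14.0 at P0 and 288 ± 64.7 at P21 (SD, n = 4 each).

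Neuropeptides and the genes that process them rose. All 22 neuropeptide genes tested were called higher, with a median change of 3.04, against 31.8% of all genes. Pmch rose by 5.95 ± 0.20, from 20.6, 45.7 and 125 to 2899, 4022 and 5117 (adjusted p = 5.9e-14), and Avp by 5.84 ± 0.23, from 33.7, 68.7 and 124 to 3179, 5849 and 7150 (adjusted p = 3.5e-13). Neither gene's groups overlapped. Avp climbed through gestation, from 228 ± 154 at E14 to 1118 ± 397 at E17, whereas Oxt (oxytocin), its neighbour in function, stayed between 432 ± 81.4 and 535 ± 220 at every age from E10 to P0 and was 5255 ± 964 at P21. Hcrt likewise read 98.1 ± 28.5 to 148 ± 26.7 from E10 to P0 and 1430 ± 427 at P21. Of the 21 neuropeptides that rose at least 2-fold, 11 were past their midpoint between E14 and E17, 5 only at P21 and 5 crossed it more than once. The 11 genes of peptide processing and granules were all called higher (median 3.79), and 6 of them, among them Cpe, Chgb and Pcsk1n, were past the midpoint by E12, while no peptide with a single crossing was.

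Most synaptic genes rose, where 31.8% of all genes were called higher. All 16 genes of vesicle release were higher (median 3.29), led by Snap25, a protein of membrane fusion, at 33.1, 102 and 132 early and 2742, 3496 and 3975 mature (change 5.11 ± 0.22, adjusted p = 8.9e-13). Of glutamate receptor and postsynaptic genes 11 of 12 were higher (median 3.23), Homer1 being the one not called, at 0.30 ± 0.24. Of GABA receptor and chloride genes 10 of 12 were higher (median 3.11). Slc12a5, the chloride exporter that makes GABA inhibitory, read 52.5, 97.1 and 197 early and 4017, 4313 and 5116 mature (change 5.18 ± 0.20, adjusted p = 3.4e-13), and its mean rose at each age, from 140 ± 51.4 at E11 to 3475 ± 506 at P0. Voltage-gated channels were higher for 13 of 14 genes (median 2.59), led by the sodium channel Scn2a at 5.16 ± 0.28. Among transmitter genes 10 of 13 were higher, and the 3 not called were Slc17a7, Chat and Slc18a3, which mark cortical-type glutamate neurons and cholinergic neurons. Receptors for hormones and peptides were divided: 8 of 18 rose, led by the thyroid hormone receptor Thra (2.98), Nr3c1 (2.43) and Npy2r (2.30), Igf1r fell by 0.63, and 9 were not called, among them Esr1 (0.28 ± 0.28), Lepr (-0.43 ± 0.20) and Insr (-0.01 ± 0.16).

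All 12 myelin genes tested were higher (median 3.95), against 31.8% of all genes, and 11 of them passed the midpoint only at P21. Mobp, by which the left-out array was chosen, is among the 12, so this result is not independent of that choice. With that array kept all 12 were still called higher (median 3.48). Cnp, an enzyme of myelin, read 108, 135 and 245 early and 3977, 4402 and 6376 mature (change 4.82 ± 0.17, adjusted p = 1.2e-13), and was still 412 ± 138 at P0. All 14 astrocyte genes were called higher (median 4.32), led by the glutamate transporter Slc1a2 (5.28 ± 0.26) and Ntsr2 (5.23 ± 0.20), although Gja1, a gap-junction protein, rose by 0.30 ± 0.13 only and lost its call when any of 8 of the 15 arrays was left out. Of the 13 astrocyte genes that rose at least 2-fold, 6 passed the midpoint only at P21, and of 5 such genes of oligodendrocyte precursors 3 did so by E15 and 2 at P21. At P0 the mean of the astrocyte genes stood 1.74 above its early level and that of the myelin genes 0.26. Apoe, a lipid carrier, rose from 92.3 ± 11.8 at E13 to 2425 ± 451 at P0 and 6102 ± 728 at P21. Of 16 clock genes 14 were higher (median 1.94), and 9 of the 13 that rose at least 2-fold passed the midpoint only at P21. Bhlhe40, a repressor in the clock, was switched on, from 3.52, 5.77 and 9.29 to 160, 211 and 334 (change 3.49 ± 0.16, adjusted p = 2.4e-12), while Cry1 changed by -0.09 ± 0.18. The light cycle was 12 hours on and 12 off, and the time of day of dissection was not given in the sources used here, and these genes cycle daily.

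**Figure D3:**
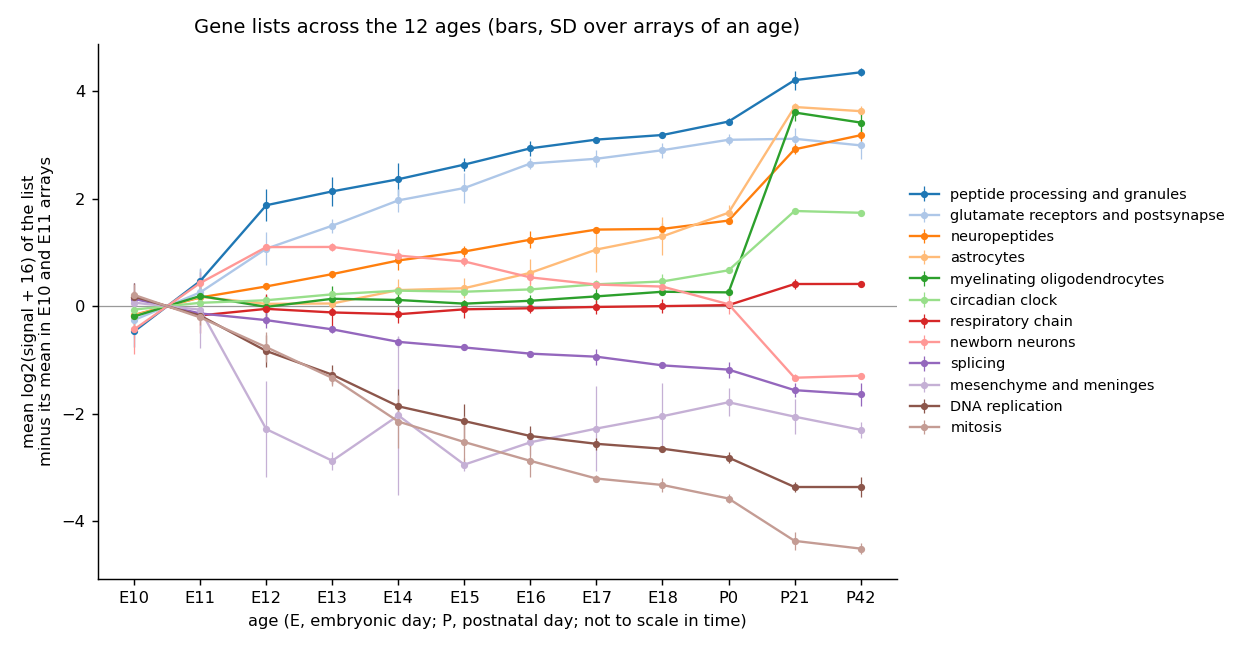
Mean log2(signal + 16) of 12 gene lists at each of the 12 ages, relative to the E10 and E11 arrays, with the SD over the arrays of an age. Granule and glutamate receptor genes rise from E12, myelin, astrocyte and clock genes rise most between P0 and P21, and mitosis genes fall at each step from E10 to P42.

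The largest falls were those of embryonic globins. Hbb-y read 6564, 12024 and 19420 in the early arrays and 0.707, 1.74 and 18.4 in the mature ones (change -9.21 ± 0.21, adjusted p = 5.4e-16). Hbb-bh1 fell by 8.76 and Hba-x by 7.89 log2 units. Of 6 red cell genes tested 5 were lower and 1 was not called (median -5.51), where 32.6% of all genes were called lower. The embryonic globins are made by the first red cells of the embryo, and fewer such cells and less RNA per cell cannot be told apart. The timing of these globins differed. Hbb-bh1 was 245 ± 108 at E13, Hba-x passed its midpoint at E15, and Hbb-y was still 3396 ± 839 at E15 and 40.6 ± 31.7 at E17. Of 10 genes of mesenchyme and meninges 9 were lower and 1 higher, by 1.52 (median -2.33). Of the 9, 8 had passed the midpoint by E12, among them Twist1 (-4.18), Col3a1 (-3.86) and Foxc2 (-3.36). The mean of the list on the log2 scale lay between 8.16 and 9.65 in the early arrays and between 6.52 and 7.22 in the mature arrays. In the mature arrays Twist1 read 1.92 to 22.0, Foxc2 4.24 to 58.2 and Col3a1 105 to 298. The part of surrounding tissue and blood in these and the other falls was not tested.

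All 17 mitosis genes tested were lower, with a median of -4.32 and no gene short of a fall of 2.80, against 32.6% of all genes called lower, and 12 of the 17 were switched off. Cdk1, the kinase that drives entry into mitosis, read 860, 1844 and 2509 early and 2.78, 6.44 and 24.1 mature (change -6.13 ± 0.23, adjusted p = 2.1e-13). Its mean fell at every age, from 2240 ± 254 at E10 to 330 ± 149 at E14, 123 ± 13.6 at P0 and 4.69 ± 1.84 at P42. Mki67, the proliferation antigen, read 1189, 1787 and 2703 early and 4.29, 14.6 and 51.5 mature, each mature signal below the median of its array. Of 23 replication genes 22 were lower (median -3.52), led by Rrm2, which makes deoxyribonucleotides, at 3082, 4212 and 5347 early and 15.9, 37.0 and 47.3 mature (change -6.31 ± 0.13, adjusted p = 1.1e-16). Cdc45 alone was not called, at -0.34 ± 0.23. Fen1, a nuclease of replication and repair, stayed at 539 to 1140 in the mature arrays and had fallen by 0.80 only. Of the 17 mitosis genes, 10 passed the midpoint at E14 and 5 at E15, with Mki67 at E16 and Cdk1 at E17.

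The promoters of the switched-off genes were set beside those of the switched-on genes, since members of both sets moved together. RefSeq promoters (build GRCm38.p6) were matched for 121 of the 150 genes switched off and 225 of the 294 switched on, as 144 and 312 promoters of 300 bases, from 250 before to 50 after the start. Short motifs were searched on both strands: TTTGGCGC or TTTCCCGC for E2F, a factor of DNA replication genes, TTTGAA for the cell-cycle homology region (CHR) found in mitotic genes, and CCAAT, the NF-Y box. No motif contains another. An E2F match was in 9.72% of promoters of switched-off genes, in none of the 312 of switched-on genes and in 2.54% of 14166 promoters of all genes tested. A CHR match was in 37.5%, 11.2% and 12.1% of the same sets, CCAAT in 55.6%, 36.9% and 37.3%, and both CHR and CCAAT in 21.5%, 5.77% and 4.69%. Of 15 promoters of the mitosis list, 11 (73.3%) held both, and of 22 promoters of the replication list 7 (31.8%) held an E2F match and 2 held both CHR and CCAAT. Promoters of switched-on genes had fewer CpG pairs, with a median of 11, against 21 for switched-off genes and 19 for all genes tested. Parts of the RE1 element bound by the neuronal repressor REST (GGACAGCGC or TTCAGCACC) were in 1.60% of the promoters of switched-on genes and 1.10% of all. A match is a string of letters and not a bound site.

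These promoters show the motifs in place: Cdk1 and Cdc20 for mitosis, Mcm5 for replication and Scg2 for a gene switched on. Each line gives the 150 bases before the start, 5' to 3' on the strand of the gene, in lower case. The capitals mark CCAAT in either direction, the CHR, the E2F match near the start of the Mcm5 line, and TGACGTCA, the cAMP response element (CRE).
Cdk1, chr10:69352913-69353062, minus strand: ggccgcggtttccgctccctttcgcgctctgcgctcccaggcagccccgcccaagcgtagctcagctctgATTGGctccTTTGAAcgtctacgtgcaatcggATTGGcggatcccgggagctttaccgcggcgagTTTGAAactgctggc
Cdc20, chr4:118437344-118437493, minus strand: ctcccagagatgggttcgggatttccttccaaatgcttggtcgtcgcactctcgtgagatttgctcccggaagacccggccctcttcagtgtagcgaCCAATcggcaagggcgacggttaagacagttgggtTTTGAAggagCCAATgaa
Mcm5, chr8:75109359-75109508, plus strand: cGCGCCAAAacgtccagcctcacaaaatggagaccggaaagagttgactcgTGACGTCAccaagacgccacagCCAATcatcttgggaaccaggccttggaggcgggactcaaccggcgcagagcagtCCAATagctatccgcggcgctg
Scg2, chr1:79440027-79440176, minus strand: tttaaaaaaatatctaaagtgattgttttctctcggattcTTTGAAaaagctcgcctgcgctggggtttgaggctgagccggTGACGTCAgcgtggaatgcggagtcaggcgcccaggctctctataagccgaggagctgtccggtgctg
Cdk1 and Cdc20 carried CCAAT and CHR together, and their signals fell by 6.13 and 5.32 log2 units. Scg2 carried CHR without CCAAT in this window, and rose by 6.26. The CRE match was in 2.24% of promoters of switched-on genes, 4.86% of switched-off genes and 2.82% of all.

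Genes of the undifferentiated embryo and of progenitors fell less evenly, where 32.6% of all genes were called lower. Of 9 genes of early undifferentiated cells 8 were lower (median -3.32), led by Hmga2, a chromatin protein of growing embryos (-5.52 ± 0.19), and Igf2bp1, an RNA-binding protein (-5.18 ± 0.23). Lin28a and Sall4 were switched off by E12. Mycn, a transcription factor gene of the Myc family, was 930 ± 150 at E10 and 461 ± 153 at E11, stayed between 273 ± 74.7 and 381 ± 51.6 from E12 to P0 and was 35.6 ± 3.54 at P21. Of 15 progenitor and radial glia genes 13 were lower but by a smaller margin (median -1.44), from Vim (-3.50 ± 0.13) to Hes5 (-0.90 ± 0.23), Sox1 was not called (-0.43 ± 0.36), and Fabp7, a lipid-binding protein of radial glia and astrocytes, rose by 0.70. Sox2 remained at 506, 558 and 766 in the mature arrays, against 686, 1230 and 3140 early. Of 17 newborn-neuron genes 12 were lower, 2 higher and 3 not called (median -1.55). Yet the mean of the list stood above its early level before birth, by 1.10 at E12 and by 0.04 at P0. Sox11 shows that course, with 5813 ± 3236 at E11, 7899 ± 1847 at E13, 2175 ± 1092 at P0 and 120 ± 81.3 at P42 (SD, n = 3 at P42 and 4 otherwise).

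Chromatin and signalling genes fell in part. Of 19 chromatin genes 14 were lower and 4 higher (median -1.48). Uhrf1, which guides maintenance methylation, was switched off (1039, 1342 and 1702 early, 3.95, 9.15 and 24.2 mature), and Ezh2, the Polycomb methyltransferase, fell by 4.49 ± 0.12. The 4 that rose were Cbx7 (2.24), Hdac11 (1.54), Hdac5 and Dnmt3a (0.61). Of the 4 other probe sets of Dnmt3a, 2 were called the opposite way and none the same way, and its rise lost the call when any of the 3 mature C57Bl/6 arrays was left out. Of 22 genes of patterning signals 18 were lower (median -1.24), among them the retinoic acid binders Crabp2 (-5.72 ± 0.36) and Crabp1 (-4.31 ± 0.52) and the Shh pathway genes Gli2 (-2.69) and Gli3 (-2.59). Ptch1, the Shh receptor, fell by 0.64 only and stayed at 725, 980 and 1248 in the mature arrays. Of 32 transcription factors of hypothalamic patterning, 11 were lower and 1 higher (median -0.33), 20 were not called, and 10 met the rule for held level given further on. The share called lower was near the 32.6% of all genes, and the share held level was below the 47.1% of all genes. The largest fall was that of Foxd1 (-3.91 ± 0.22), followed by Lhx2 (-2.15 ± 0.24) and Six6 (-1.79 ± 0.30). Otp, a factor of neuroendocrine neurons, ranged from 78.0 to 1398 in the early arrays and from 638 to 806 in the mature ones, and its change of 0.84 ± 0.51 was not called (adjusted p = 0.16).

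**Figure D4:**
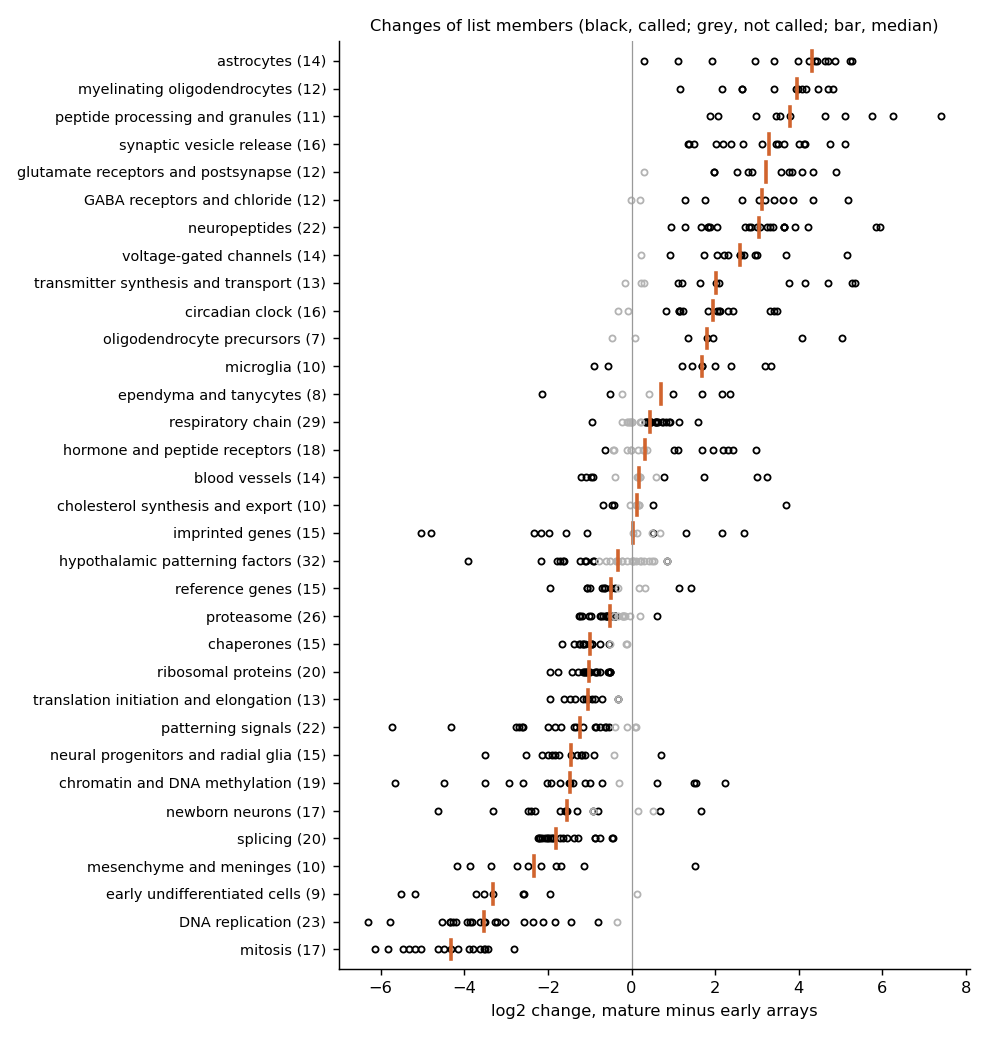
Log2 change, mature minus early, of each tested member of the 33 gene lists with at least 7 members tested (number in brackets), with the median of the list as an orange bar. Neuropeptide, synaptic and glial lists lie to the right, mitosis and replication lists to the left with no member above 0, and the patterning factors straddle 0.

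Core machinery also moved, by smaller steps and mostly downward, where 32.6% of all genes were called lower and 31.8% higher. All 20 splicing genes tested were lower (median -1.79), from Srsf6 (-2.23 ± 0.15) to Sf3b2 (-0.44 ± 0.14). All 20 ribosomal protein genes were lower (median -1.01), with Rplp0 at 5561, 7146 and 14514 early and 1634, 1889 and 2466 mature (change -1.96 ± 0.19, adjusted p = 6.6e-08). Translation factors were lower for 12 of 13 genes, chaperones for 12 of 15 and proteasome subunits for 16 of 26, with 1 proteasome gene higher. Genes of the respiratory chain went the other way: 19 of 29 were higher (median 0.44) and 1 was lower. These medians kept their sign with arrays centred on the median and with quantile normalization, under which that of ribosomal proteins was -0.70. The number of respiratory genes called higher was 12 with the actin ratio as a covariate, and the numbers of proteasome genes called lower were 9 in C57Bl/6 alone and 21 in CD-1 alone.

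Some families changed member. Of 27 pairs of an early and a late relative, 21 could be tested, and in 10 the early gene fell while the late one rose. The chromatin remodeller of neurons is a known case: Actl6a fell from 1334 ± 211 to 153 ± 31.0 and Actl6b rose from 36.0 ± 15.1 to 259 ± 31.5 (SD, n = 8 and 7), changes of -2.98 and 2.44 log2 units. Ss18 (-1.98) and Ss18l1 (1.36) moved likewise, as did Phf10 (-2.07) and Dpf1 (0.92), although another probe set of Phf10 was called the opposite way. Hexokinase changed from Hk2 (505 ± 171 to 85.2 ± 16.3) to Hk1 (333 ± 74.9 to 1634 ± 160), and lactate dehydrogenase from Ldha (-1.48) to Ldhb (1.13). Eef1a2, the elongation factor of neurons, rose by 5.88 from 78.1 ± 77.7 to 4244 ± 442, while Eef1a1 fell by 0.71. Snap23 fell by 1.89 where Snap25 rose by 5.11, and Dnmt3b fell by 3.50 where Dnmt3a rose by 0.61, a rise that was called in none of the 4 other probe sets of Dnmt3a and that was lost without any of the 3 mature C57Bl/6 arrays. Pfn1 (-0.66) and Pfn2 (1.09) were also counted, but Pfn1 lost its call when any of 10 of the 15 arrays was left out and read 0.24 in C57Bl/6 alone. In 5 pairs both rose, among them Scn3a with Scn1a and Slc12a2 (0.47) with Slc12a5, and in 2 both fell, among them the splicing repressors Ptbp1 (-2.97) and Ptbp2 (-1.18), whose other probe set was called the opposite way. In the other 4 pairs at least one gene was not called. Over the alternative settings the number of exchanged pairs ran from 6, with P42 as the mature group, to 10.

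Many genes were held level. The 95% interval of the change lay within 1 log2 unit on either side of 0 for 6463 genes (47.1%), of which 4769 also kept their 12 age means within a span of 1 log2 unit. The limit is wide: 2097 of the 6463 were also called higher or lower, and 1553 had an interval within 0.5. A mean signal over 500 in both groups was found for 874 of the 6463 and for 1440 of all genes tested. The scale understates the change of dim genes, so a dim gene can meet the rule more easily. A further 520 genes were neither called nor shown to be level. In the 8 most level genes with a mean signal over 500 in both groups, the interval reached no further than 0.22 from 0. Hp1bp3, a heterochromatin protein, read 828, 1062 and 1229 early and 927, 1101 and 1279 mature (change 0.02 ± 0.09). Cox5a, a subunit of cytochrome oxidase, read 2851, 3577 and 4437 early and 2943, 3607 and 4121 mature (0.02 ± 0.09). The others were Wnk1, Phpt1, Laptm4a, Cstf2t, Selenof and Rap1a, and the arrays of the groups overlapped in each. Across the 12 ages the means of Phpt1 and Selenof spanned 0.27 log2 units, and those of Wnk1, which dipped before birth, 0.59.

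Of 15 genes commonly used as references and tested, 10 were lower, 2 higher and 3 not called (median -0.48), against 32.6% lower and 31.8% higher over all genes. Hprt, a purine salvage enzyme, rose by 1.43 ± 0.17, from 385 to 943 in the early arrays to 1426 to 1998 in the mature ones (adjusted p = 9.0e-07). Sdha rose by 1.13 ± 0.12, and Rplp0 (-1.96), Tbp (-1.07) and Tubb5 (-1.06) fell at least 2-fold. Of the 15, 7 met the rule for held level, a share near the 47.1% of all genes, with Actb at -0.48 ± 0.17, Pgk1 at -0.39 ± 0.12 and Ywhaz at 0.18 ± 0.16, and under quantile normalization Actb read 0.07 and Pgk1 0.04, neither of them called. The median of the 15 was then -0.17, with 8 lower. The call of Actb was also lost without the P42 C57Bl/6 female (-0.42). Actb ranged from 6647 to 24005 over the early arrays.

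Equal ends did not mean a flat course. For 251 genes (1.83%) the change between the ends lay within 1 log2 unit while the mean of E13 to E16 differed from the mean of the ends by at least 1 log2 unit, with 147 higher and 104 lower in the middle. The ends were equal within that limit only, and 178 of the 251 were not called between them. Peaks were at E15 for 43 and at E16 for 34 of the 147, and troughs at E15 for 36 and at E13 for 22 of the 104. Dlx1, a homeobox factor of GABA neurons, read 164 ± 69.4 at E10, 1219 ± 289 at E13 and 172 ± 10.0 at P42, and its middle stood 2.30 above its ends (adjusted p = 1.2e-20). Dlx5 (2.13) and the antisense transcript Dlx6os1 (2.47) behaved alike, and whether the probe set of Dlx6os1 reads that strand only was not tested. Crmp1 stayed high to birth, at 3294 ± 580 at P0, and was back at 543 ± 36.5 by P21 (middle 2.34, adjusted p = 1.6e-25). Dcc, a receptor for axon guidance (2.23), and Neurod6 (2.25), a factor of cortical neurons that reached 168 ± 56.2 at E15, completed the 6 largest. Neurod6 was dim at both ends, at 0.429 to 26.9 in the early arrays and 8.94 to 20.8 in the mature ones. The 3 cortical markers tested, Neurod6 among them, stood on average 1.52 above their early level at E14, 1.74 at E15, 1.53 at P0 and 0.23 at P21. The 5 thalamic markers stood 1.03 above theirs at E15, 1.41 at E16 and 1.52 at E18, and were still 0.97 above it at P21. The part of these neighbouring tissues in the middle peaks was not tested. Of the 32 patterning factors 6 were of this kind, Dlx1, Dlx5, Fezf1, Lhx6, Lhx9 and Nkx2-2. In the other direction Gja1 fell from 2678 ± 422 at E10 to 348 ± 34.0 at E15 and was 2875 ± 259 at P21 (middle -2.36, adjusted p = 2.2e-17). Adk, an adenosine kinase, went from 926 ± 138 to 195 ± 40.2 and 1052 ± 173 at the same ages, but both of its other probe sets were called lower at the mature end. Erbb3 (-2.24) and Tgfbr3 (-2.02) completed the 4 largest.

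**Figure D5:**
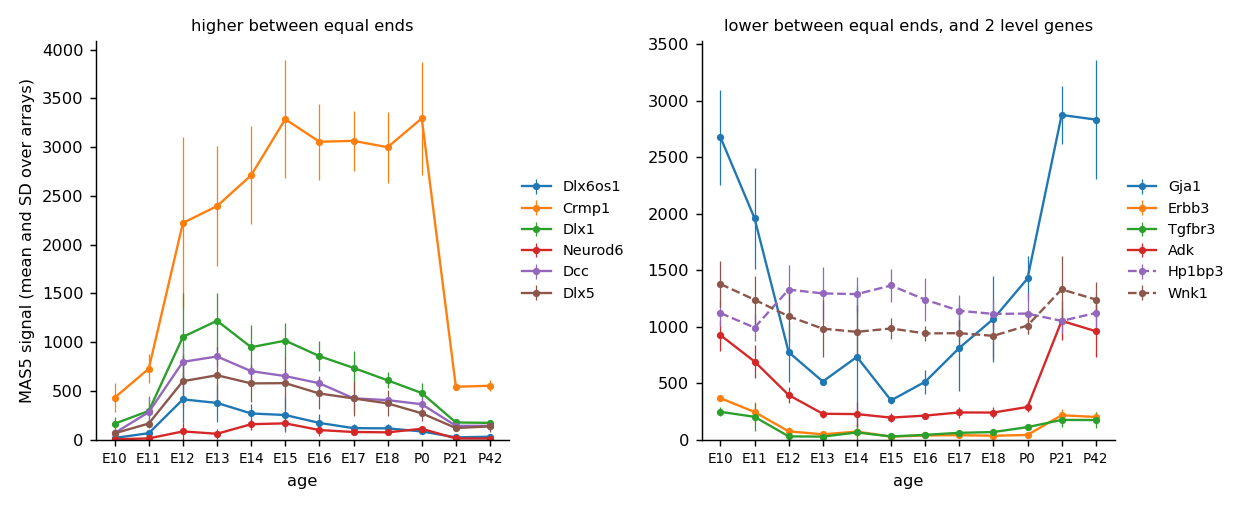
MAS5 signal (mean and SD over the arrays of an age) of the 6 genes highest and the 4 genes lowest in the middle among genes with equal ends, with Hp1bp3 and Wnk1 as level genes (dashed). Crmp1 holds its high level to P0 and is low at P21, whereas Gja1 is lowest at E15 and returns by P21.

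Imprinted genes had no common direction. Of 15 tested 4 were higher and 7 lower (median 0.05), against 31.8% higher and 32.6% lower over all genes. Cdkn1c, an inhibitor of the cell cycle, fell from 1355, 2394 and 3857 to 36.0, 62.5 and 74.2 (-5.03 ± 0.21, adjusted p = 7.9e-13), and Mest fell by 4.80. Impact rose by 2.70 and Ndn by 2.16, and Nnat, which reached 9582 ± 675 at E13, ended where it began (0.05 ± 0.18). Of 10 cholesterol genes 2 rose and 3 fell, neither share above that of all genes. The large change was that of Cyp46a1, an enzyme of cholesterol removal from neurons (3.70 ± 0.25). Hmgcs1 and Cyp51, enzymes of synthesis, changed by 0.18 ± 0.18 and -0.04 ± 0.14.

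Other cell types and neighbouring tissue were read from their markers, beside 31.8% higher and 32.6% lower over all genes. Microglia genes were higher for 8 of 10 and lower for 2 (median 1.70), ependymal and tanycyte genes were higher for 4 of 8 and lower for 2, and 5 of 7 genes of oligodendrocyte precursors were higher. Of 14 vessel genes 4 rose, among them Rgs5 of pericytes (3.25) and the transporter Slco1a4 (3.01), 4 fell and 6 were not called, shares near the 31.8% higher and 32.6% lower of all genes. Of 4 pituitary genes 2 were higher. Gh, growth hormone of the pituitary, was 6386 in the P21 C57Bl/6 female, 10980 in the P42 C57Bl/6 female and 132 in the P21 C57Bl/6 male, against 5.77 to 35.6 in the 4 mature CD-1 arrays. Pomc, made in both pituitary and hypothalamus, was 4692 in that P42 female, against 214 to 778 in the other 6 mature arrays. The rise of Pomc was 1.65 ± 0.41 with that array and 1.20 without it, and that of Gh 2.90 ± 0.90 and 2.10, both still called. Cga of the pituitary was also highest there, at 551. Of 5 thalamic genes 1 was higher, 1 lower and 3 not called (median 0.01), the one that rose being Calb2 (5.56), a gene that hypothalamic neurons express too. Of 3 cortical genes 1 was higher and 1 lower, shares near those of all genes, and all were dim in the mature arrays, with Tbr1 highest at 44.6. All 3 striatal genes tested were higher, Ppp1r1b by 1.80, Drd1 by 1.33 and Rgs9 by 1.28. Of 4 choroid plexus genes 1 was higher and 2 lower, and the one that rose ranged from 87.2 to 5129 over the mature arrays. The mean of that list on the log2 scale was 6.06 to 6.90 in the early and 6.20 to 7.72 in the mature arrays. The part of these tissues in the other results was not tested.

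The strains were compared by an interaction of stage and strain in limma, which called 319 genes (2.33%), 167 of them with the larger change in CD-1 and 110 with opposite signs in the strains. Among genes named here, Hmga2 fell by 6.08 in CD-1 and by 4.87 in C57Bl/6, Clu rose by 4.19 and 5.67, Dbp by 2.84 and 4.09, Nr1d2 by 3.71 and 2.86 and Omg by 5.14 and 3.87. The mature C57Bl/6 arrays were those with the high actin ratio, and with that ratio as a covariate 2 genes were called, so strain and the actin ratio cannot be told apart.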

How the data were processed

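RNA of microdissected mouse hypothalamus and preoptic area was amplified once with an oligo-dT T7 primer and hybridised to Affymetrix arrays, per the labels' protocols. The deposited values are MAS5 signal intensities made by the authors with GCOS 1.4, per the submitters' processing notes, and were used as deposited. One-round amplification from the 3' end makes signal depend on RNA length. Of 45101 probe sets, 34945 had 1 gene symbol, 932 several and 9160 none (64 were controls). The probe set with the highest mean was kept for each gene, and genes above the array median in at least 4 of 48 arrays were tested, which left 13718. On log2(signal + 16), limma 3.58.1 (R 4.3.3; lmFit, eBayes with trend) fitted stage with strain as a covariate over the 15 arrays, with Benjamini-Hochberg adjustment over all genes tested and a threshold of 0.05. The middle ages were compared with the ends in a fit of 47 arrays with age, strain and sex. Tables and figures were made in Python 3.11.15 with pandas 2.3.3 and matplotlib 3.10.9. The rule for named genes took the 10 largest rises and 10 largest falls with groups that do not overlap, up to 3 leaders of each list, both genes of each pair, the 2 largest changes at each switch age, the 8 most level genes, the reference genes, and the 6 largest positive and 4 largest negative middle differences among genes with equal ends. Genes named beyond these, such as the members of a switch age, the course of Nnat and the markers of the pituitary, were chosen after their values were seen. The members, lists and tests were chosen with earlier results of these data known. Promoter sequences came from RefSeq (GRCm38.p6). Tested on simulated data with 13718 genes, the fit called 97.9% of 4-fold and 70.6% of 2-fold changes, and 4.02% of its calls were wrong. Those data held 40554 entries without a change, and 202, 204 and 194 with a 1.5-fold, 2-fold and 4-fold change. In the arrays compared here, 8832 of 13718 genes were called. The shares for data in which most genes differ were not tested. The number of arrays limits the precision. Alternatives covered the pseudocount, filter, normalization, covariates, strains, ages, probe sets and each array left out.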

Additional observations from a re-analysis of the deposited data

Results flagged for a closer look

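Among 398 groups of values of named genes, 11 values stood apart from the rest of their group, where chance flags about 1 in 20 groups. Highest in the early arrays were Resp18 (19.33, others 1.91 to 4.62) and Trh (16.367, others 3.08 to 7.07) in the E11 C57Bl/6 male and Hpcal4 (17.49, others 1.68 to 6.79) in the E10 C57Bl/6 female. Lowest there were Sdha (664, others 869 to 1101) and Phpt1 (691.2, others 905 to 1141) in the E11 C57Bl/6 female. Highest in the mature arrays were Hbb-y (18.436, others 0.707 to 2.19) in the P42 CD-1 male and Cdk1 (24.109, others 2.78 to 8.74) and Tubb4a (3653.2, others 2898 to 3104) in the P21 C57Bl/6 male. Lowest there were Ugt8a (705.95, others 1173 to 1702) in the P42 C57Bl/6 female, Nes (38.601, others 104 to 196) in the P42 CD-1 female and Car10 (383.44, others 567 to 685) in the P42 CD-1 male.

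The change differed between the strains for 12 named genes by the interaction test in limma, given here as the change in CD-1 minus that in C57Bl/6. Strain and the actin ratio cannot be told apart in these values. It was 1.2825 for Hbb-y (adjusted p = 0.0376), 0.8559 for Nr1d2 (0.0273) and 1.2795 for Omg (0.0202). It was -1.2127 for Hmga2 (adjusted p = 0.0201), -1.4853 for Clu (0.0172), -2.1119 for Crym (0.0155), -1.5033 for C1qa (0.0430) and -1.2447 for Dbp (0.0129). It was -5.4261 for Gh (adjusted p = 0.0419), -1.1812 for Slc2a1 (0.0419), -1.6845 for Pfn1 (0.0326) and -1.4531 for Igf1 (0.0436). Pfn1 and Slc2a1 had opposite signs in the strains, with Pfn1 at 0.24 in C57Bl/6 and -1.44 in CD-1 and Slc2a1 at 0.80 and -0.39.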

How the results depend on the processing

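Of 6688 values of named genes under 32 alternatives, 6513 kept their direction and side of the threshold, 144 lost the call, 28 gained it and 3 changed sign: Pfn1 was 0.2442 in C57Bl/6 alone, and Actb 0.06624 and Pgk1 0.0436 with quantile normalization. Counts moved more. Genes held level numbered 10097 with no filter on low signals (18193 genes tested), 3626 in C57Bl/6 alone and 1553 with the interval within 0.5. Switched-off genes numbered 231 in CD-1 alone, 88 with the array labelled C57Bl/6 P42 male kept and 96 at the 40th percentile. Switched-on genes numbered 470 with E10 alone as the early group, 467 over all probe sets and 184 at the 40th percentile. Genes with equal ends and a different middle numbered 138 in C57Bl/6 alone. The strain by stage test called 2 genes with the actin ratio as a covariate. The cause of these moves was not tested, except that more genes or probe sets enter with no filter and over all probe sets, and fewer arrays in 1 strain. Leaving out each array in turn gave 4201 to 4483 genes higher, 4259 to 4569 lower, 292 to 325 switched on, 146 to 168 off, 6149 to 6609 held level and 229 to 264 with equal ends and a different middle. Another probe set of the same gene was called the opposite way for 311 of the 4569 called genes that had one. Dim genes sit near the added 16, which limits how large a change of theirs can read. Early and mature arrays could not be paired, because each array holds tissue dissected at a single age, and the labels carry no replicate numbers.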
